A study of Mus musculus with 7 samples.

Results

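Transcript levels of 36 genes of the ATF4 response, of amino acid supply and of tRNA charging were examined in hematopoietic stem cells (HSCs) of the mouse. The members were taken by symbol from a table of 33298 genes, and all 36 were found once each. They are 5 transcription factors and targets of the ATF4 branch, 12 enzymes of serine, one-carbon and amino acid synthesis, 6 amino acid transporters and 13 cytosolic tRNA synthetases. The 3 Dek_cKO libraries came from mice with both Dek alleles floxed and Tie2-Cre, and the 4 Dek_fl libraries from Dek fl/fl mice for which no Cre is named, all at 12 weeks of age. Tie2-Cre drives recombination in endothelial and hematopoietic cells, so deletion is not limited to the stem cells, and no other allele is named for either group. Each library was made from about 800 bone marrow cells sorted as Lin-Sca-1+c-Kit+CD48-CD150+, with the SMART-Seq V4 ultra low input kit and polyA selection. No label says that the libraries come from separate animals. The p-values therefore speak only of how far these 7 libraries scatter, and part of that scatter may be technical. Fewer cells expressing a gene and less RNA per cell cannot be told apart in such bulk samples.

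ATF4 is a transcription factor whose mRNA is translated better when eIF2 is phosphorylated, as happens when uncharged tRNA activates the kinase GCN2 or unfolded protein activates PERK. Its targets import amino acids, make serine, glycine, asparagine and proline, and charge tRNAs, so that one factor links amino acid shortage to supply. HSCs are known for a low rate of protein synthesis, and the integrated stress response has been described as active in them. Because ATF4 is regulated largely at translation, the level of its mRNA is not a measure of its activity.

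ATF4 binds with C/EBP proteins to a composite element, and the letters TGATGNAA of that element were searched on both strands of promoter windows from RefSeq (GRCm38.p6). A window ran from 250 bases before to 50 bases after the start of a gene. Of the 29 members that have such a window, 10 (34.5%) held a match, against 1219 of 27025 genes (4.51%) in the whole table of windows. A match is a description of letters and not of a bound site. By subgroup, matches were found in 2 of 5 ATF4 factors, 2 of 12 enzymes, 1 of 4 transporters and 5 of 8 tRNA synthetases with a window. The matched stretches are printed 5′ to 3′ on the strand of the gene, since they are the sequence feature that these members share, with the match in capitals. By the RefSeq starts that set the windows, the stretches of Aars, Asns, Chac1, Gars, Pycr1, Slc7a11 and Tars end before the start. In Iars, Trib3 and Yars the match lies just after the RefSeq start, and the stretches of Iars and Yars begin before it. Gene positions printed elsewhere are from GENCODE M21, whose starts can differ. By those, the stretches of Aars, Asns, Iars and Yars lie inside the gene, and those of Tars and Trib3 cross its start.
Aars, chr8:111033710-111033757, plus strand: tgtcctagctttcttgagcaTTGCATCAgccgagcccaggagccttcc
Asns, chr6:7693210-7693252, minus strand: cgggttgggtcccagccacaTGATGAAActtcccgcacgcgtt
Chac1, chr2:119351029-119351076, plus strand: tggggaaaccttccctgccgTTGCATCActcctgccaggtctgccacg
Gars, chr6:55037951-55037998, plus strand: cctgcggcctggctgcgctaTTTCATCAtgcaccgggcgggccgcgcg
Pycr1, chr11:120643824-120643871, minus strand: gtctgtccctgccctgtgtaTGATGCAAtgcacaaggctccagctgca
Slc7a11, chr3:50443633-50443699, minus strand: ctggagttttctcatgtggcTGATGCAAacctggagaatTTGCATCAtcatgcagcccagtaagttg
Tars, chr15:11399659-11399693, minus strand: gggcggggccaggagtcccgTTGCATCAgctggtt
Iars, chr13:49682126-49682155, plus strand: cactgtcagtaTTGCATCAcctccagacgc
Trib3, chr2:152344028-152344057, minus strand: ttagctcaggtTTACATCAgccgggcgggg
Yars, chr4:129189895-129189924, plus strand: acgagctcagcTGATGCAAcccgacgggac
Slc7a11 held 2 matches, on opposite strands, and the Aars window held a further match that is not shown.

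The libraries held 4422645 to 12540431 reads in Dek_cKO and 4209152 to 26951515 in Dek_fl, as recovered from the values, which are FPKM (fragments scaled to transcript length and to the library's total). Dek_fl replicate 4 stood apart, with 8575 genes above 0 against 14291 to 19950 in the others. Dek itself, on chromosome 13 from 47084775 to 47106201 of GRCm38, was deposited at 9.60, 8.40 and 12.7 FPKM in Dek_cKO, against 77.0, 117.8, 143.0 and 26.0 FPKM in Dek_fl. The difference of -80.7 FPKM had p = 0.0571 in an exact permutation test, two-sided over 35 splits, whose smallest possible p is 0.0286. The value in Dek_cKO replicate 3 is not a whole number of reads unless multiplied by 10, which would raise the mean of Dek_cKO to 48.2 FPKM. The comparison then had p = 0.314 by the same exact test. Without that library the difference was -81.95 FPKM with p = 0.133 by the exact test, whose smallest possible p is then 0.0667. All 36 members, in contrast, had values that are whole reads in all 7 libraries. Of the HSC identity markers, 13 of 15 passed the filter on low values that is given with the test of the members, with a summed level of 973 to 1812 FPKM in Dek_cKO and 1049 to 1392 FPKM in Dek_fl. Mature myeloid markers summed to 592 to 11530 FPKM in Dek_cKO and 829 to 2592 FPKM in Dek_fl, and the fold change was positive in all 10 that passed the filter, none of them called. No marker of that list was at 0 in every library. Erythroid markers summed to 38.5 to 155 FPKM in Dek_cKO and 101 to 191 FPKM in Dek_fl, with a negative fold change in all 5 tested. Of the HSC markers 5 had a positive and 8 a negative fold change, with Gata2 lower without overlap. Values of Gata2 in 2 Dek_cKO libraries carry 5 decimals, as that of Dek in Dek_cKO replicate 3 does, where the table otherwise has at most 4. The results for Gata2 are for the values as deposited, and those with the 2 values multiplied by 10 are not given here. Endothelial and stromal markers summed to 4.61 to 29.6 FPKM in Dek_cKO and 4.61 to 16.8 FPKM in Dek_fl. B cell markers summed to 42.9 to 111 FPKM in Dek_cKO and 4.43 to 219 FPKM in Dek_fl. T and NK cell markers summed to 509 to 1345 FPKM in Dek_cKO and 120 to 590 FPKM in Dek_fl, with Cd3d at 0 throughout. Megakaryocyte markers summed to 114 to 413 FPKM in Dek_cKO and 115 to 1251 FPKM in Dek_fl. By limma, none of these markers passed the adjusted p of 0.05. Gata2, as deposited, was lower and Nkg7 and Gp9 were higher at an unadjusted p under 0.05. The part of other cell types in the results on the members was not tested.

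No member was called higher or lower in Dek_cKO. The test was limma on log2(FPKM + 1), for genes that reached 1 FPKM in 3 or more libraries, which 30 of the 36 members did. None of the 30 passed an adjusted p of 0.05, nor did any of the 10260 genes tested (0%), and the smallest adjusted p by limma was 0.9999. Dek itself, as deposited, was thus not called by this test either. Its log2 fold change was -2.81 (SE 0.962; unadjusted p = 0.00853, adjusted p = 0.9999 by limma). At an unadjusted p under 0.05, 1 member was higher, Slc7a5, and 0 were lower, against 2.12% higher and 1.81% lower among all genes. Groups did not overlap in 2 of 30 members, Slc7a5 and Mthfd1l, both higher in Dek_cKO, against 2.86% of all genes higher without overlap, 2.09% lower and 4.94% either way. Counts of 1 and 2 among 30 genes are near these background shares. The median log2 fold change was -0.08 over the 30 members and 0.05 over all genes tested, with 14 members above 0 and 16 below. By voom on the recovered reads, 0 members and 0 of 9980 genes were called, with 513 genes at an unadjusted p under 0.05, against 404 by limma on FPKM.

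**Figure D1:**
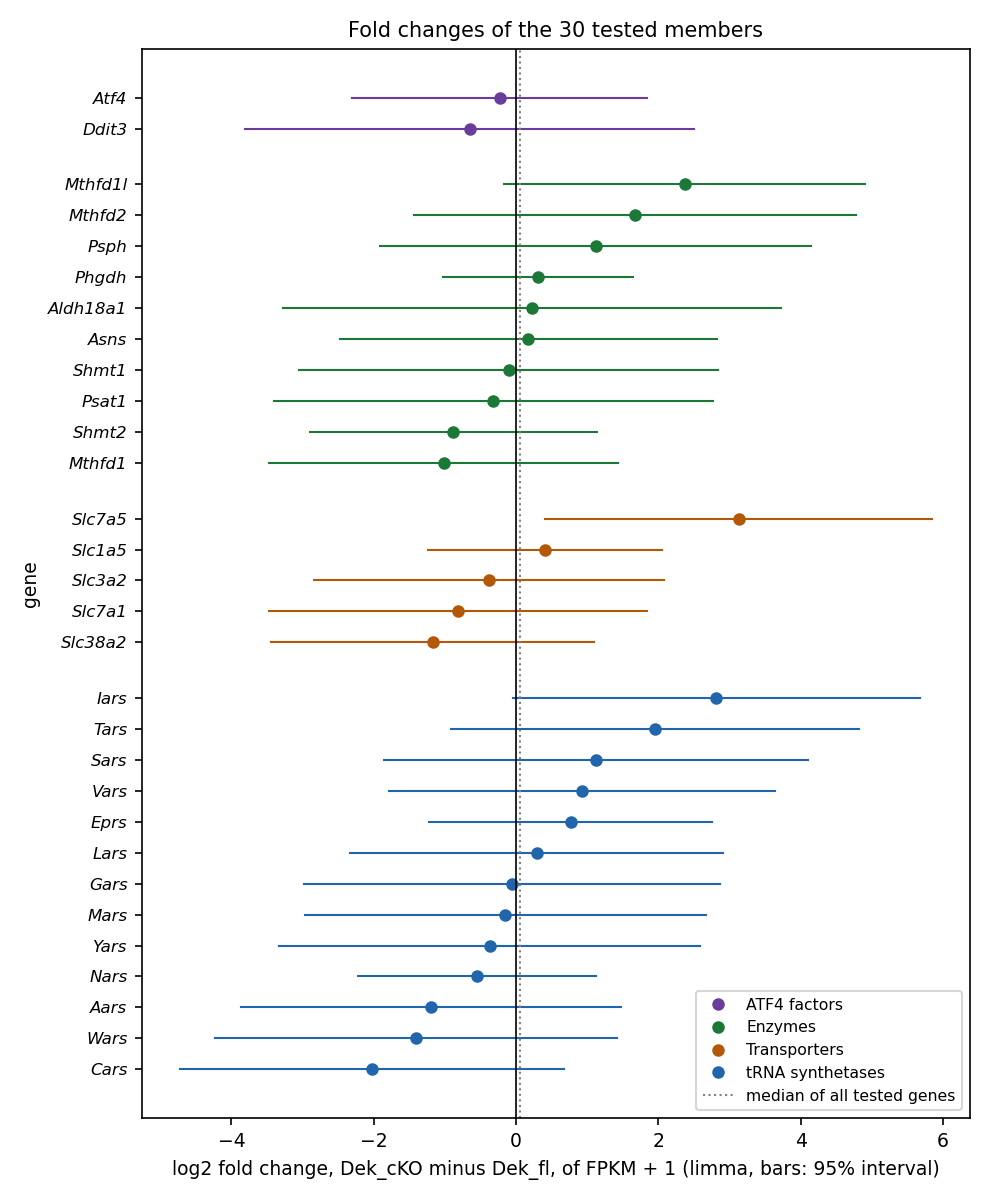
Log2 fold change of FPKM + 1, Dek_cKO minus Dek_fl, of each of the 30 tested members (x axis) by gene (y axis), with the 95% interval by limma and colours for the subgroups. The interval lies above 0 in Slc7a5 alone, by an unadjusted measure, and the dotted line is the median of all 10260 tested genes.

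The member with the smallest p was Slc7a5, which encodes LAT1, the light chain of the exchanger that imports leucine and other large neutral amino acids. On chromosome 8 from 121881150 to 121907694, it stood at 40.8, 27.5 and 25.8 FPKM in Dek_cKO replicates 1 to 3. In Dek_fl replicates 1 to 4 it stood at 2.30, 15.6, 2.15 and 0 FPKM. All 3 Dek_cKO libraries lay above the highest Dek_fl library, replicate 2. In reads these were 854, 427 and 1139 in Dek_cKO against 34, 859, 204 and 0 in Dek_fl, where 3 reads in replicate 4 would be 0.189 FPKM. The log2 fold change was 3.13 (SE 1.30; 95% interval 0.41 to 5.85), with an unadjusted p of 0.0261 and an adjusted p of 0.9999 by limma. Without Dek_fl replicate 4, whose 0 is the lowest value, it was 2.51 (unadjusted p = 0.0490, adjusted p = 0.8970 by limma). Without Dek_cKO replicate 3 it was 3.25 (unadjusted p = 0.0562, adjusted p = 0.9873 by limma). The unadjusted p by limma was also above the threshold when Dek_cKO replicate 1 (0.0777), Dek_cKO replicate 2 (0.0506) or Dek_fl replicate 3 (0.0510) was left out, and with a replicate block (0.0669). Its adjusted p lay between 0.6964 and 1 over all alternatives.

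Slc3a2, whose product 4F2hc is the heavy chain that carries LAT1 to the membrane, had other proportions. It stood at 34.3, 3.05 and 66.6 FPKM in Dek_cKO and at 8.78, 38.8, 63.0 and 22.7 FPKM in Dek_fl, and the 2 groups overlapped. Its log2 fold change was -0.38 (SE 1.18). The ratio of Slc7a5 to Slc3a2 in FPKM was 1.19, 8.99 and 0.388 in Dek_cKO replicates 1 to 3. In Dek_fl replicates 1 to 3 it was 0.262, 0.402 and 0.0342, and in replicate 4 the light chain was listed at 0. The ratios of both groups overlapped, since Dek_fl replicate 2 lay above Dek_cKO replicate 3.

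The most abundant transporter, Slc1a5 (ASCT2), exchanges neutral amino acids and takes up glutamine. It was at 358, 40.8 and 80.7 FPKM in Dek_cKO and at 77.4, 37.9, 120 and 114 FPKM in Dek_fl. Dek_cKO replicate 1 alone stood above the Dek_fl range, and the log2 fold change of 0.41 (SE 0.788) became -0.47 without it. Slc38a2 (SNAT2), a sodium-coupled importer of small neutral amino acids, was at 2.91, 34.3 and 31.4 FPKM in Dek_cKO. In Dek_fl it was at 59.7, 36.5, 34.2 and 22.6 FPKM, and again Dek_cKO replicate 1 stood outside the range of the other libraries. Slc7a1 (CAT1), the carrier of arginine and lysine, was at 1.66, 0 and 7.55 FPKM in Dek_cKO and at 9.50, 1.50, 9.76 and 1.23 FPKM in Dek_fl. Slc7a11 (xCT), which imports cystine for glutathione synthesis and whose promoter stretch is printed with 2 matches, did not pass the filter. Its highest value was 0.383 FPKM, in Dek_cKO replicate 1, and it was listed at 0 in 2 libraries of each group.

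**Figure D2:**
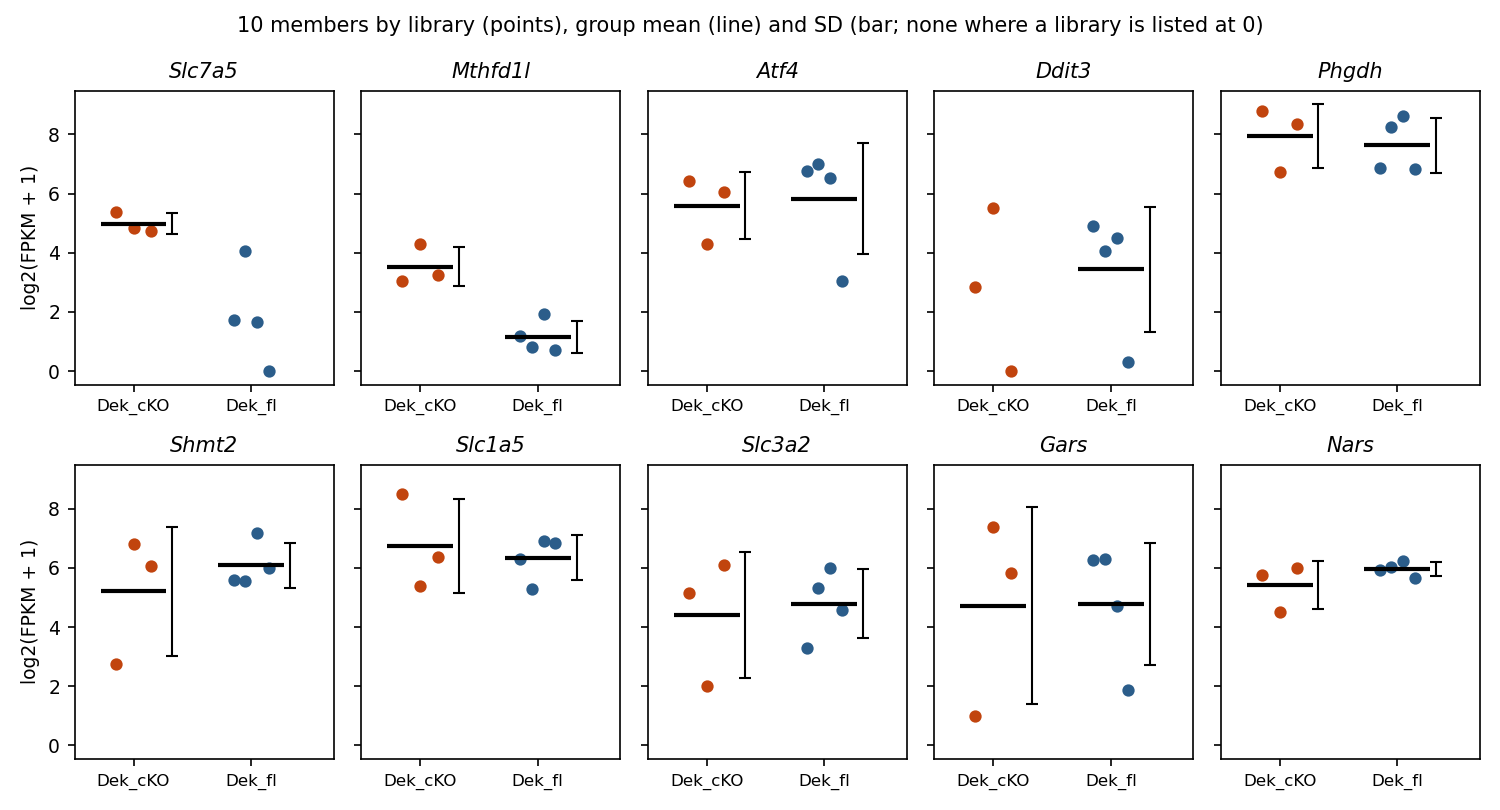
Levels as log2(FPKM + 1) (y axis) of 10 members in Dek_cKO and Dek_fl (x axis). Points are libraries, lines group means and bars SD, drawn only where no library is listed at 0. Slc7a5 and Mthfd1l are the members whose groups do not overlap, and the other 8, the 2 most abundant of each subgroup, overlap.

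Mthfd1l, the other member without overlap, encodes the mitochondrial 10-formyltetrahydrofolate synthetase that releases formate for the cytosol. On chromosome 10 from 3973118 to 4167081, it stood at 7.34, 18.6 and 8.52 FPKM in Dek_cKO and at 1.29, 0.762, 2.79 and 0.660 FPKM in Dek_fl. The lowest Dek_cKO library was thus above the highest Dek_fl library, with 161, 303 and 394 reads against 20, 44, 277 and 11 reads. The means were 11.5 ± 6.18 FPKM in Dek_cKO (SD, n = 3) and 1.38 ± 0.981 FPKM in Dek_fl (SD, n = 4). The log2 fold change was 2.37 (SE 1.21; 95% interval -0.16 to 4.90), with an unadjusted p of 0.0652 and an adjusted p of 0.9999 by limma. It was 2.22 without Dek_fl replicate 4 and 2.51 without Dek_cKO replicate 3. The residual SD of this gene, 0.593 on the log2 scale, was below the median of 1.51 over all genes. The ratio of Mthfd1l to the cytosolic Mthfd1 was 0.680, 3.92 and 0.408 in Dek_cKO and 0.181, 0.0155, 0.133 and 0.0217 in Dek_fl. These ratios did not overlap, but they hold the same Mthfd1l values that were named for not overlapping, so they are no separate result.

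Of the first steps of serine synthesis, Phgdh was the most abundant of all 36 members. PHGDH makes 3-phosphohydroxypyruvate from 3-phosphoglycerate, PSAT1 transaminates it and PSPH removes the phosphate. Phgdh, on chromosome 3 from 98313170 to 98339990, was at 437, 104 and 323 FPKM in Dek_cKO and at 115, 300, 391 and 112 FPKM in Dek_fl. Both groups span a low and a high level, and the log2 fold change was 0.31 (SE 0.638). Psat1 was at 1.61, 41.0 and 10.02 FPKM in Dek_cKO and at 43.2, 41.9, 15.5 and 0 FPKM in Dek_fl. Psph was at 23.1, 2.67 and 14.6 FPKM in Dek_cKO and at 0.495, 16.6, 25.1 and 0 FPKM in Dek_fl. Psat1 and Psph were below Phgdh in every library, with Phgdh 2.54 to 272 times Psat1 in Dek_cKO and 2.67 to 25.2 times in Dek_fl, leaving out replicate 4 where Psat1 is listed at 0. In the library with the least Psat1 of Dek_cKO, replicate 1, Psph was at its highest of that group, and in Dek_cKO replicate 2 the order was the opposite. The log2 fold changes were -0.32 (SE 1.48) for Psat1 and 1.12 (SE 1.45) for Psph.

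Serine hydroxymethyltransferases pass a carbon from serine to folate, SHMT2 in mitochondria and SHMT1 in the cytosol. Shmt2, on chromosome 10 from 127517123 to 127522444, was at 5.65, 111 and 65.8 FPKM in Dek_cKO and at 47.4, 46.5, 143 and 62.4 FPKM in Dek_fl. Dek_cKO replicate 1 stood apart as the lowest, and the log2 fold change of -0.88 (SE 0.964) became 0.35 without it. Shmt1 was at 4.998, 12.7 and 32.2 FPKM in Dek_cKO and at 46.1, 30.4, 33.3 and 0 FPKM in Dek_fl. Shmt2 was above Shmt1 in all 7 libraries, by a ratio of 1.13 to 8.75 in Dek_cKO and of 1.03 to 4.28 in Dek_fl replicates 1 to 3. Of the folate enzymes that follow, the cytosolic trifunctional Mthfd1 was at 10.8, 4.74 and 20.9 FPKM in Dek_cKO and at 7.11, 49.1, 20.996 and 30.4 FPKM in Dek_fl. The mitochondrial dehydrogenase Mthfd2 was at 0, 122 and 2.104 FPKM in Dek_cKO and at 6.61, 0.980, 0.801 and 0 FPKM in Dek_fl. A single library, Dek_cKO replicate 2, thus holds nearly all of its signal, 1127 reads, and the log2 fold change of 1.67 (SE 1.49) became -0.37 without that library.

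Asns, asparagine synthetase and a textbook ATF4 target, was at 9.92, 2.13 and 0 FPKM in Dek_cKO and at 0.589, 0.0317, 22.6 and 0.768 FPKM in Dek_fl. The highest value, in Dek_fl replicate 3, rests on 1228 reads, while the other Dek_fl libraries held 5, 1 and 7 reads. Its log2 fold change was 0.17 (SE 1.27), with a negative sign without Dek_cKO replicate 1 or Dek_fl replicate 1, 2 or 4, by array weights, by voom and with a replicate block. Aldh18a1 makes the precursor of proline and Pycr1 the last step to proline in mitochondria. Aldh18a1 was at 89.3, 0.192 and 3.87 FPKM in Dek_cKO and at 0.539, 56.7, 24.5 and 0 FPKM in Dek_fl, the largest residual SD of the tested members, 3.02 on the log2 scale. In reads, Dek_cKO replicate 1 held 1874 and replicate 2 held 3, with exact Poisson 95% intervals of 1790 to 1961 and 0.619 to 8.77 that cover counting error only. Pycr1 reached 1.63 FPKM in Dek_cKO replicate 2 and at most 0.0815 FPKM elsewhere. Bcat1, the cytosolic transaminase of branched-chain amino acids, reached 0.779 FPKM in the same library and at most 0.161 FPKM elsewhere. Neither passed the filter.

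Among the ATF4 factors, Atf4 was the one member detected in every library. On chromosome 15 from 80255184 to 80257541, it was at 85.3, 18.8 and 64.8 FPKM in Dek_cKO and at 107, 126, 90.6 and 7.18 FPKM in Dek_fl. Dek_fl replicate 4 stood far below the other Dek_fl libraries, and Dek_cKO replicate 2 below the others of its group. The means were 56.3 ± 34.1 FPKM in Dek_cKO (SD, n = 3) and 82.8 ± 52.4 FPKM in Dek_fl (SD, n = 4), with a log2 fold change of -0.23 (SE 0.991). That value was -1.16 without Dek_fl replicate 4 and 0.41 without Dek_cKO replicate 2, so the sign rests on single libraries. Ddit3, which encodes CHOP, a factor of the late and pro-death phase of the response, was at 6.24, 44.3 and 0 FPKM in Dek_cKO. In Dek_fl it was at 28.7, 15.8, 21.6 and 0.228 FPKM, the last of these a single read. Its log2 fold change was -0.65 (SE 1.51). Ddit3 and the synthetase gene Mars lie on opposite strands and share 68 exon bases, as 11 members do with some gene on the other strand. Whether reads were counted by strand is not stated, so such reads cannot be told apart.

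The other ATF4 targets of this subgroup were barely detected. Trib3, a pseudokinase that restrains AKT and ATF4, was at 0, 0.893 and 3.78 FPKM in Dek_cKO, or 0, 8 and 96 reads. It was listed at 0 in all 4 Dek_fl libraries, where 3 reads would be 0.0549 to 0.352 FPKM. Chac1, which degrades glutathione, was listed at 0 in all 3 Dek_cKO libraries and in Dek_fl replicates 2, 3 and 4, and was at 1.89 FPKM in Dek_fl replicate 1, or 13 reads. Atf5, a related factor, was listed at 0 in 6 libraries and was at 0.102 FPKM in Dek_fl replicate 3. Chac1 and Trib3 carry the promoter letters printed above, and so do Pycr1 and Slc7a11, so 4 of the 10 members with a match did not pass the filter. The 6 tested members with a match had a median log2 fold change of 0.06, with 3 above 0, and the 17 tested members without one had -0.15, with 7 above 0.

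**Figure D3:**
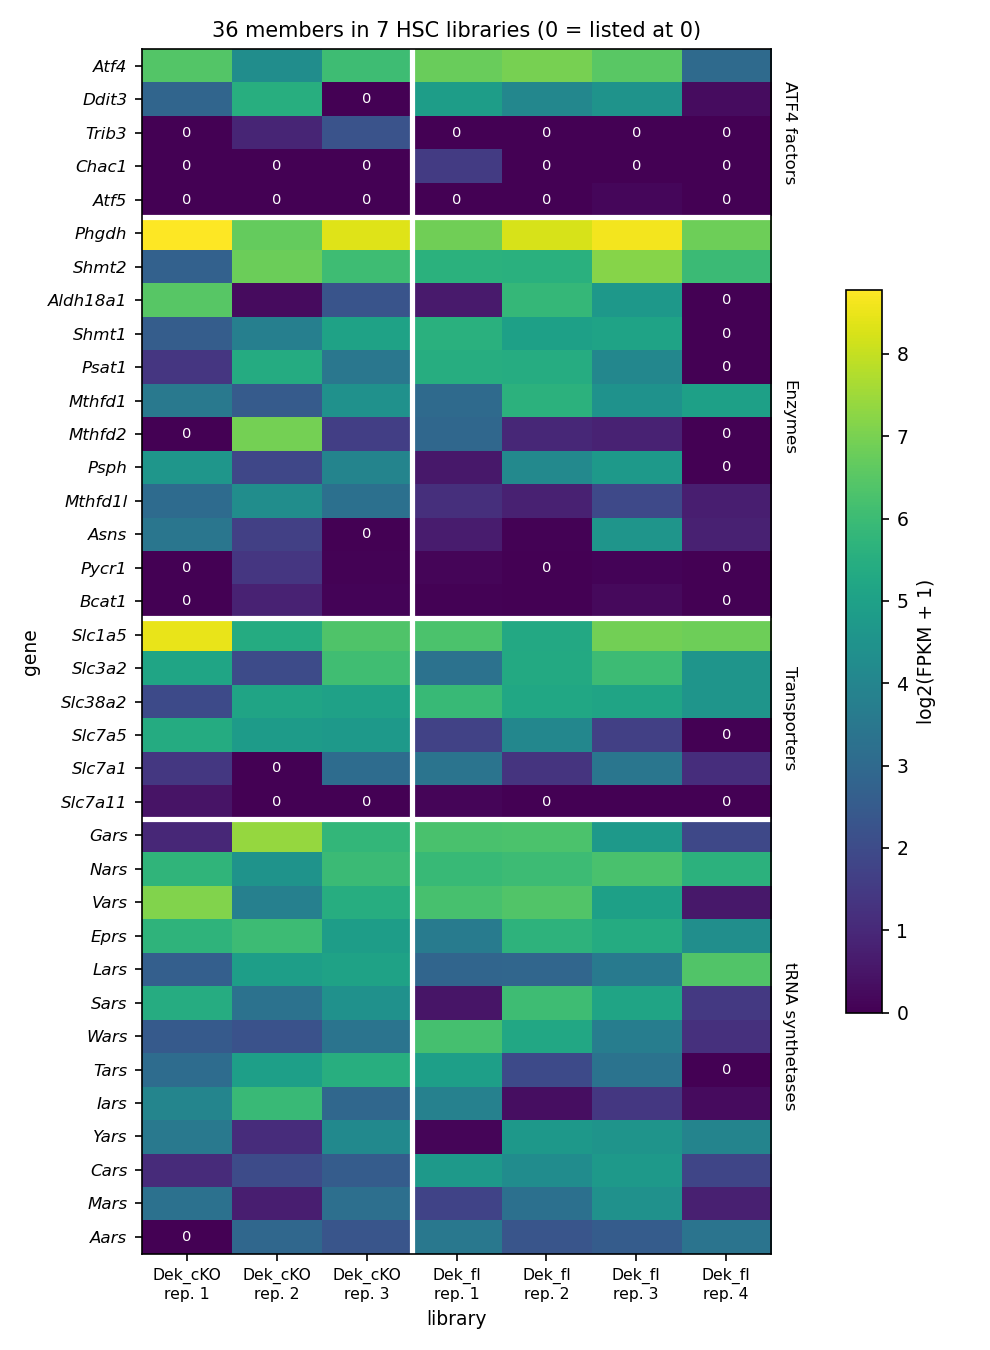
Level as log2(FPKM + 1) (colour) of the 36 members (y axis, ordered within each subgroup by mean FPKM) in the 3 Dek_cKO and 4 Dek_fl libraries (x axis). A printed 0 marks a value listed at 0. Phgdh, Slc1a5 and Atf4 are bright in most libraries, while Trib3, Chac1, Atf5 and Slc7a11 are dark in most.

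The tRNA synthetases attach each amino acid to its tRNA, and all 13 passed the filter. The most abundant by mean were Gars (glycine) and Nars (asparagine). Gars, on chromosome 6 from 55038007 to 55079500, was at 0.989, 165 and 55.1 FPKM in Dek_cKO and at 75.1, 76.8, 25.4 and 2.70 FPKM in Dek_fl. Dek_cKO replicates 1 and 2 lie at opposite ends of all 7 libraries, and the log2 fold change of -0.06 (SE 1.40) was 1.81 without replicate 1 and -1.38 without replicate 2. Nars was at 52.7, 21.6 and 62.7 FPKM in Dek_cKO and at 59.6, 63.8, 74.8 and 49.2 FPKM in Dek_fl. It was the steadiest member, with a residual SD of 0.541 on the log2 scale, and its log2 fold change was -0.55 (SE 0.801). Aars (alanine) was listed at 0 in Dek_cKO replicate 1, at 6.61 and 3.94 FPKM in the other Dek_cKO libraries, and at 10.4, 3.98, 4.88 and 9.31 FPKM in Dek_fl. Exons of Aars share 1326 bases with Exosc6 on the same strand, so some of its reads may have been assigned to either gene. Tars (threonine) was at 7.68, 29.6 and 44.2 FPKM in Dek_cKO and at 29.9, 2.92, 9.13 and 0 FPKM in Dek_fl.

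Fold changes of the synthetases lay on both sides of 0. The highest was that of Iars (isoleucine), 2.82 (SE 1.37; unadjusted p = 0.0529, adjusted p = 0.9999 by limma), at 14.9, 60.8 and 6.63 FPKM in Dek_cKO. In Dek_fl it was at 13.5, 0.260, 1.71 and 0.200 FPKM, so replicate 1 lay within the Dek_cKO range. Its log2 fold change was 2.41 without Dek_fl replicate 4 (unadjusted p = 0.0961 by limma). It was 3.50 without Dek_cKO replicate 3 (unadjusted p = 0.0441) and 3.61 without Dek_fl replicate 1 (unadjusted p = 0.0211), with adjusted p by limma of 0.9873 and 1. The lowest was that of Cars (cysteine), -2.03 (SE 1.29; unadjusted p = 0.132, adjusted p = 0.9999 by limma), at 1.10, 3.02 and 4.83 FPKM in Dek_cKO. In Dek_fl it was at 26.1, 18.4, 25.8 and 2.54 FPKM, and replicate 4 alone lay within the Dek_cKO range. Without Dek_fl replicate 4 its log2 fold change was -2.72 (unadjusted p = 0.0354, adjusted p = 0.8864 by limma), and without Dek_cKO replicate 3 it was -2.37. Wars (tryptophan), also an interferon-responsive gene, had a log2 fold change of -1.41 (SE 1.35), and was at 1.31 to 72.6 FPKM over all libraries. Eprs, the fused synthetase of glutamate and proline, had 0.77 (SE 0.953) and a range of 11.5 to 63.2 FPKM. Vars (valine) had 0.93 (SE 1.30), Sars (serine) 1.12 (SE 1.43), Lars (leucine) 0.29 (SE 1.26), Mars (methionine) -0.15 (SE 1.35) and Yars (tyrosine) -0.37 (SE 1.42). The lowest and highest levels over all libraries were 0.481 and 137 FPKM for Vars, 0.399 and 64.7 FPKM for Sars and 5.32 and 82.4 FPKM for Lars. They were 0.664 and 20.5 FPKM for Mars and 0.0817 and 24.7 FPKM for Yars. Lars had its highest value in Dek_fl replicate 4, the library that was the lowest of all for 11 other members.

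The subgroups were compared within each library by the mean of log2(FPKM + 1) over their tested members. The 13 synthetases averaged 3.47, 3.83 and 4.29 in Dek_cKO and 3.89, 4.26, 4.22 and 2.44 in Dek_fl. The 10 enzymes averaged 3.66, 4.02 and 3.85 in Dek_cKO and 3.25, 4.17, 4.61 and 1.93 in Dek_fl. The 5 transporters averaged 4.48, 3.48 and 5.06 in Dek_cKO and 4.12, 4.24, 4.63 and 3.43 in Dek_fl. Transporters were above synthetases except in Dek_cKO replicate 2 and Dek_fl replicate 2. Atf4 and Ddit3, the 2 tested factors, averaged 4.64, 4.90 and 3.02 in Dek_cKO and 5.83, 5.53, 5.51 and 1.67 in Dek_fl.

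**Figure D4:**
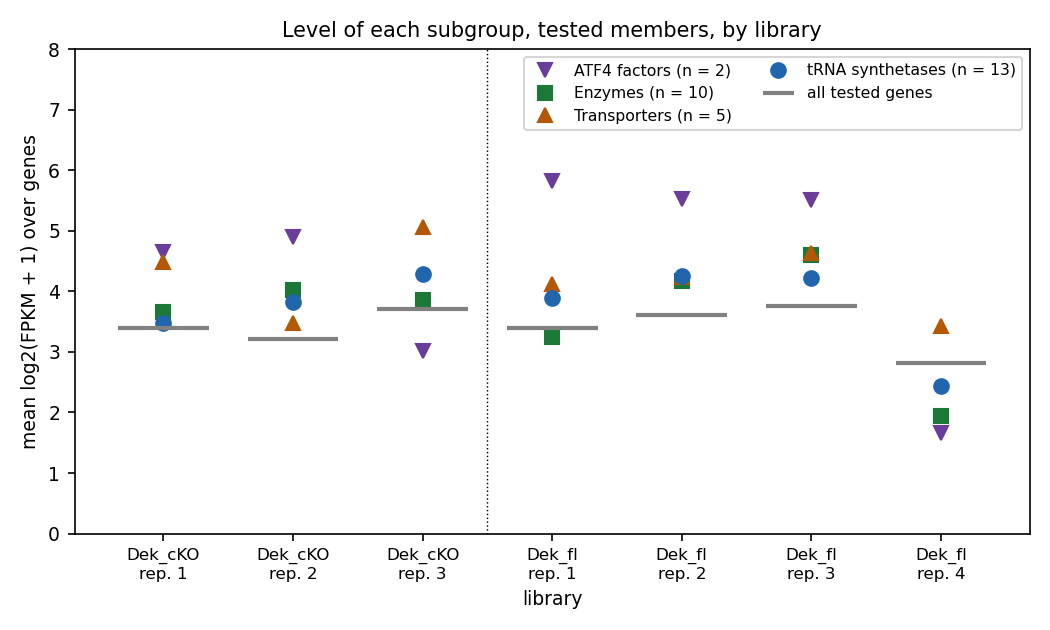
Mean of log2(FPKM + 1) over the tested members of each subgroup (y axis, symbols) and over all 10260 tested genes (grey lines) in each library (x axis). Enzymes, synthetases and factors lie below the grey line in Dek_fl replicate 4, as do the factors in Dek_cKO replicate 3 and the enzymes in Dek_fl replicate 1.

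The differences between groups in these subgroup means depended on single libraries. The 13 synthetases averaged 3.86 ± 0.41 in Dek_cKO (SD, n = 3) and 3.70 ± 0.86 in Dek_fl (SD, n = 4), a difference of 0.16. Without Dek_fl replicate 4 the difference was -0.26, with an SD of 0.20 in the other Dek_fl libraries, and without Dek_cKO replicate 3 it was -0.05. The enzymes averaged 3.85 ± 0.18 in Dek_cKO and 3.49 ± 1.18 in Dek_fl, a difference of 0.36. Without Dek_fl replicate 4 it was -0.16 (SD 0.69 in the other Dek_fl libraries), and without Dek_cKO replicate 3 it was 0.35. The transporters averaged 4.34 ± 0.80 in Dek_cKO and 4.11 ± 0.50 in Dek_fl, a difference of 0.23. Without Dek_fl replicate 4 it was 0.01 (SD 0.26 in the other Dek_fl libraries), and without Dek_cKO replicate 3 it was -0.13. The 2 factors averaged 4.19 ± 1.02 in Dek_cKO and 4.63 ± 1.98 in Dek_fl, a difference of -0.44. Their Dek_fl replicates 1, 2 and 3 (SD 0.18) lay above all Dek_cKO libraries, and the difference was -1.43 without Dek_fl replicate 4 but 0.14 without Dek_cKO replicate 3. That separation leaves out Dek_fl replicate 4 after its low values were seen, and the share of all genes that separate so is not given here. Atf4 separated so by itself, but Ddit3 did not. Ddit3 was at 44.3 FPKM in Dek_cKO replicate 2, above its highest Dek_fl value of 28.7 FPKM in replicate 1. All 10260 genes differed by 0.05, by -0.15 without Dek_fl replicate 4 and by -0.09 without Dek_cKO replicate 3. The median of the members' fold changes was -0.06 for the synthetases (6 above 0, 7 below), 0.20 for the enzymes (6 and 4), -0.38 for the transporters (2 and 3) and -0.44 for the factors (0 and 2). Each of these 4 medians changed sign when some single library was left out.

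Members were listed at 0 unevenly over libraries. Of the 30 tested members, 2, 1 and 2 were listed at 0 in Dek_cKO replicates 1 to 3 (6.67%, 3.33% and 6.67%), against 10.3%, 12.7% and 4.68% of all tested genes. In Dek_fl replicates 1, 2 and 3 none of them was, against 7.38%, 6.37% and 3.50% of all tested genes, while in replicate 4 it was 7 of 30 (23.3%), against 28.9%. Those 7 were Psat1, Psph, Shmt1, Mthfd2, Aldh18a1, Slc7a5 and Tars, among them 5 of the 10 tested enzymes. In Dek_fl replicate 4, 3 reads of these would be 0.162 to 0.318 FPKM, below the lowest value above 0 of the same gene in every case. Dek_fl replicate 4 was the lowest library of 11 of the 30 members, tied for lowest in 1, Mthfd2, and the highest of 1. How often it was the lowest among all tested genes was not counted, so this is not a result about the members. The residual SD of the 30 tested members had a median of 1.62 on the log2 scale, against 1.51 over all genes. Pearson's r of log2(FPKM + 1) over the 30 members averaged 0.435 between libraries of the same group and 0.402 between libraries of different groups, against 0.541 and 0.552 over all 10260 genes, which share a library and its depth.

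**Figure D5:**
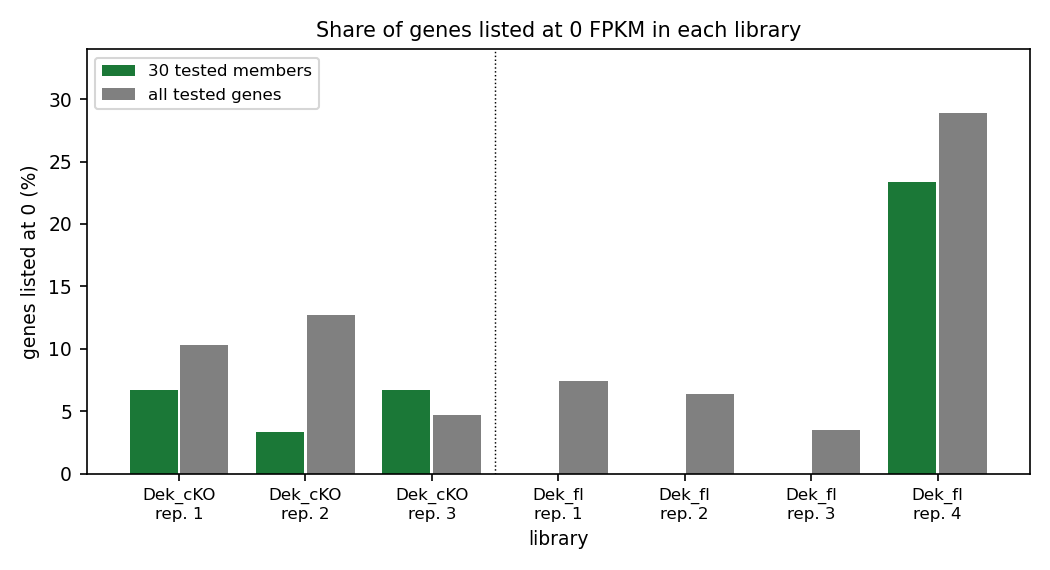
Percentage of genes listed at 0 FPKM (y axis) among the 30 tested members and among all 10260 tested genes in each library (x axis). Dek_fl replicate 4 stands out with 23.3% of members and 28.9% of all genes, while no tested member is listed at 0 in Dek_fl replicates 1, 2 and 3.

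Other genes of the pathway were taken from 6 lists, and none of their tested genes passed the adjusted p of 0.05 by limma. At an unadjusted p under 0.05 by limma, 2 of the 85 tested (2.35%) were higher, Ppp1r15b and Pycrl, against 2.12% of all genes, and 0 were lower. Groups did not overlap in 3 (3.53%), Ppp1r15b, Pycrl and Slc6a6, all higher, against 2.86% of all genes. The kinases, eIF2 and eIF2B subunits and phosphatase regulators, 17 of 17 tested, had 1 of these and a median log2 fold change of 0.30. Ppp1r15b, which directs a phosphatase to eIF2, was at 47.8, 34.8 and 12.0 FPKM in Dek_cKO and at 0.170, 10.5, 0.0066 and 0.712 FPKM in Dek_fl. The groups did not overlap, and the log2 fold change was 3.69 (SE 1.33; unadjusted p = 0.0120, adjusted p = 0.9999 by limma). Its stress-induced relative Ppp1r15a (GADD34) was at 139, 77.2 and 16.8 FPKM in Dek_cKO and at 0, 72.3, 45.9 and 113 FPKM in Dek_fl. The eIF2 alpha gene Eif2s1, the target of the kinases, averaged 104 ± 67.5 FPKM in Dek_cKO (SD, n = 3) and 73.8 ± 21.3 FPKM in Dek_fl (SD, n = 4), a log2 fold change of 0.30 (SE 0.734).

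The bZIP partners and further ATF4-linked genes, 12 of 19 tested, had a median log2 fold change of 0.64 and none at an unadjusted p under 0.05. The most abundant were Herpud1, of endoplasmic reticulum degradation, at -1.23 (SE 0.947) on the log2 scale, and the autophagy receptor Sqstm1, at -0.01 (SE 0.826). Other amino acid transporters, 9 of 17 tested, had a median of 0.40. The most abundant of them was the taurine transporter Slc6a6, at 1.83 (SE 1.22), whose groups did not overlap but whose values are not whole reads, and next came Slc7a6 at 0.40 (SE 1.58). Other serine, glycine, proline and one-carbon enzymes, 23 of 26 tested, had a median of 0.23. Mat2b, a regulatory subunit of methionine adenosyltransferase, was at 0.31 (SE 0.743). Pycrl, a cytosolic pyrroline-5-carboxylate reductase, was at 143, 116 and 147 FPKM in Dek_cKO and at 23.7, 111, 46.5 and 0 FPKM in Dek_fl. Its groups did not overlap, by a narrow margin over Dek_fl replicate 2, and its log2 fold change was 2.83 (SE 1.21; unadjusted p = 0.0294, adjusted p = 0.9999 by limma).

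Cytosolic synthetases and scaffold proteins outside the members, 10 of 10 tested, had a median log2 fold change of 0.42, against -0.06 for the 13 members, and none at an unadjusted p under 0.05. Dars (aspartate) averaged 130 ± 57.7 FPKM in Dek_cKO (SD, n = 3) and 144 ± 113 FPKM in Dek_fl (SD, n = 4). Farsb, the beta subunit for phenylalanine, was at 59.3, 154 and 49.7 FPKM in Dek_cKO and at 1.05, 153, 114 and 1.63 FPKM in Dek_fl. Mitochondrial synthetases, 14 of 17 tested, had a median of 0.38 and none at an unadjusted p under 0.05. Lars2 (leucine) was at 371, 527 and 398 FPKM in Dek_cKO and at 1581, 393, 394 and 312 FPKM in Dek_fl, well above every cytosolic synthetase among the members in FPKM. Rars2 (arginine) was at 140, 1.82 and 20.1 FPKM in Dek_cKO and at 1.02, 119, 80.7 and 0 FPKM in Dek_fl.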

How the data were processed

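The deposited values are FPKM per library, made by the authors. Per the submitters' processing notes, the reads went through Bowtie 0.12.9, HTSeq and Cufflinks 2.1.1 on mm10; what each tool did is not given here. Groups and replicate numbers were taken from sample titles. limma 3.58.1 in R 4.3.3 was run on log2(FPKM + 1) with the group alone, a mean-variance trend and robust moderation, adjusted by the Benjamini-Hochberg method over 10260 genes. Fold changes on this scale understate the change of low genes. Library totals and reads were recovered as the numbers that make FPKM whole reads at the transcript length of GENCODE M21 (GRCm38), within 0.003 reads plus rounding. Of 7018 assessed genes, 6975 were whole; the 36 members were whole, 32 at the annotated length and 4 (Atf4, Slc38a2, Lars and Nars) at several possible lengths, so no reads are printed for those 4.

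The members, the lists and the naming rule were chosen with earlier results of these data known. The rule gave every library's value for members without overlap, with an unadjusted p under 0.05, listed at 0 in one group alone, or among the 2 most abundant of a subgroup, and from each other list the 2 genes of highest mean FPKM. Every library's value for further members, and Ppp1r15b, were added after their values were seen. Alternatives were pseudocounts, filters, scalings, weights, a replicate block, voom and leaving out each library. The steps were run on simulated data, but the outcome is not given here. It is therefore not stated how large a change the test could have called. Tables were handled in Python 3.11.15 with pandas 2.3.3 and scipy 1.17.1.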

Additional observations from a re-analysis of the deposited data

Results flagged for a closer look

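Within the 4 Dek_fl libraries, 7 of 36 genes (Dek and the members not at 0 throughout Dek_fl) had 1 library far from the other 3 on the log2(FPKM + 1) scale. The measure was the gap of that library to the nearest one over the whole range, compared with Dixon's 95% critical value for 4 samples. The share of such genes among all tested genes was not computed, so the count is not a result about the members. In Dek_fl replicate 4, 28.9% of all tested genes were listed at 0. Chance gives such a gap in about 1 of 20 groups of normally distributed values, and whether these values are so distributed was not tested. The rate does not apply to Atf5, Chac1 and Slc7a11, where 2 or 3 of the 4 libraries are at 0. Dek_fl replicate 4 was the low library in Atf4 (gap 0.881), Shmt1 (0.894, listed at 0) and Cars (0.837). Dek_fl replicate 1 was the low library in Yars (0.839) and the high one in Chac1 (1.0) and Slc7a11 (0.946), and Dek_fl replicate 3 was the high one in Atf5 (1.0). The values of Chac1, Slc7a11 and Atf5 are 1.89, 0.0773 and 0.102 FPKM in those libraries, or 13, 3 and 5 reads.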

How the results depend on the processing

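No gene passed an adjusted p of 0.05 under any of 19 alternatives, and the smallest adjusted p was 0.3218 for any gene (voom) and 0.6964 for a member (no filter). Of 569 fold changes of the 30 tested members under alternatives, 519 kept their sign and 50 did not; 14 members kept it throughout, among them Slc7a5 (2.51 to 3.86 with a library left out) and Mthfd1l (1.99 to 2.62). Others of the 14 came near 0, such as Nars (-0.84 to -0.09), Sars (0.19 to 2.05), Psph (0.34 to 1.92), Slc38a2 (-1.72 to -0.13), Aars (-1.79 to -0.32) and Slc7a1 (-1.62 to -0.07). The cause of the turned signs was not tested. Signs turned with a pseudocount of 0.1 for Psat1 (0.29) and Shmt1 (0.63), with 0.5 for Shmt1 (0.093), in TPM for Shmt1 (0.053), with array weights for Asns (-0.51) and Aldh18a1 (-0.78), and by voom for Asns (-0.10), Shmt1 (0.19) and Aldh18a1 (-0.13). With each library left out in turn, log2 fold changes ran from -1.16 to 0.41 for Atf4, -2.01 to 0.74 for Ddit3, -0.70 to 1.19 for Asns, -1.57 to 0.69 for Psat1 and -0.11 to 0.93 for Phgdh. They ran from -1.41 to 0.51 for Shmt1, -1.68 to 0.35 for Shmt2, -0.37 to 3.10 for Mthfd2, -1.52 to 1.60 for Aldh18a1, -1.21 to 0.82 for Slc3a2 and -0.47 to 1.08 for Slc1a5. They ran from -1.38 to 1.81 for Gars, -0.14 to 1.11 for Lars, -0.74 to 0.68 for Mars, -1.44 to 0.54 for Yars and -0.40 to 1.75 for Vars. The median of the transporters was 0.82 without Dek_cKO replicate 2 and -1.21 without Dek_cKO replicate 3. Other medians ran from -1.43 to 0.14 for the factors, -0.38 to 0.75 for the enzymes and -0.55 to 0.53 for the synthetases with a library left out, and that of the enzymes was -0.60 with array weights and -0.05 by voom. How far depth bears on genes at few reads in the libraries of 4209152 to 5950832 reads was not tested. Of these, Dek_fl replicates 1 and 4 held 19288 and 8575 genes above 0, and Dek_cKO replicates 1 and 2 held 17314 and 16400.

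Same-numbered libraries did not deviate together (correlations of -0.0299, -0.0728 and 0.0446). Correlations between libraries with different numbers ran from -0.083 to 0.072. The values show no sign that the numbers pair the libraries, but correlations this small in so few libraries cannot exclude it. A fit with a replicate block, which drops the information of Dek_fl replicate 4, called 0 genes and 0 members, with 509 genes at an unadjusted p under 0.05. Slc7a5 then had an unadjusted p of 0.0669 by limma. Under the replicate block signs turned for Asns (-0.06), Aldh18a1 (-0.70) and Vars (-0.40).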
